A study of Arabidopsis thaliana with 9 samples.

Results

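The genes described here build and cut pectin in the plant Arabidopsis thaliana. They are 42 genes taken by identifier from a list of known pectin synthesis enzymes and of the 7 genes annotated as rhamnogalacturonan lyases. All 42 were found among the 33323 genes listed in the count files. The list used no measured value, but it was chosen with earlier results of these data known. Of the 42, 38 passed the filter on low counts and were tested among 20672 genes. GAUT2, AT1G09880, AT4G37950 and AT4G38030 did not pass.

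The libraries came from whole seedlings of 2 weeks of age raised on MS medium, with 3 libraries for each of 3 genotypes. The first genotype was atrzf1, a mutant named for the RING ubiquitin ligase gene AtRZF1. The second was pca31, which the study describes as a suppressor of atrzf1. The third was the Col-0 wild type (WT). The study's design text set out to find genes that AtRZF1 and the lyase RGL1 move in opposite directions. The labels give neither the lesion of pca31 nor the locus behind the name RGL1, and they name no osmotic treatment for these seedlings. They also do not say whether libraries of a genotype came from separate cultures, so the p-values speak for the spread among these libraries alone, which can be technical.

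Pectin is the galacturonate-rich part of the plant cell wall and is made in the Golgi. Homogalacturonan, its most abundant domain, is a chain of galacturonate that GAUT enzymes extend and that methyltransferases esterify. Rhamnogalacturonan I (RG-I) has a backbone in which galacturonate alternates with rhamnose and which carries galactan and arabinan side chains. Rhamnogalacturonan lyases cut that backbone by beta-elimination.

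AtRZF1 (AT3G56580) was at 2.3, 4.6 and 2.11 CPM (counts scaled to the TMM-adjusted library size) in atrzf1, 1.16, 3.18 and 2.53 CPM in pca31, and 24.03, 30.98 and 25.4 CPM in WT. Both mutants were therefore low in AtRZF1 in every library, so pca31 carries the low AtRZF1 level of atrzf1. The log2 fold change was -3.16 ± 0.42 (SE) in atrzf1 against WT, with an edgeR adjusted p = 1.00, and -3.55 ± 0.42 in pca31 against WT, with an edgeR adjusted p = 0.339. With the replicate number as a block the edgeR adjusted p-values were 0.00113 and 0.000194 for the same contrasts. Total counts ran from 22478803 to 33073605 per library. The libraries whose titles carry the number 3 stood apart in all 3 genotypes. The summed level of 8 leaf photosynthesis genes was 14439 to 17853 CPM in the number 3 libraries and 24341 to 39441 CPM in the others. All but 1 of the root markers were lower in numbers 1 and 2 than in number 3, in all genotypes, although the label of every library is whole seedlings. The sum over 13 root markers was 1577 to 2273 CPM in the number 3 libraries and 24.0 to 160 CPM in the others. Most of it was PYK10, at 1341 to 1847 CPM in number 3 and 17.3 to 153 CPM in the others. In the number 1 and 2 libraries 10 of the 13 stayed under 1 CPM throughout. The other gene of the 14 on the root list, GL2, which also acts in leaf hairs and was set apart after its values were seen, went the other way, with 224 to 263 CPM in number 3 and 384 to 822 CPM in numbers 1 and 2. The sum over 8 floral markers was 19.2 to 65.1 CPM in atrzf1, 17.3 to 52.9 CPM in pca31 and 8.07 to 12.8 CPM in WT. That of 10 pollen and tapetum markers was at most 1.1 CPM in the number 3 libraries, while in numbers 1 and 2 it was 111 and 57.8 CPM in atrzf1, 138 and 155 CPM in pca31, and 1.35 and 6.21 CPM in WT. With the replicate number as a block, 2 of these 10 were called higher by edgeR in each mutant against WT.

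The sequences upstream of 6 members are printed because the results below turn on these members. GAE6, GAE1 and UER1 supply sugar nucleotides and fell in the number 3 libraries, GAUT3 and GAUT4 rose there, and AT1G09910 is the most abundant lyase gene. They were read from the RefSeq build TAIR10.1, 5′ to 3′ on the strand of the gene, up to 250 bases before the annotated start and no further than the next annotated gene. Capitals mark the motifs searched on both strands, which were the G-box CACGTG, the I-box core GATAAG, the evening element AAAATATCT, the W-box core TTGACC and the TATA box TATAAA. Copies of the last motif that face each other share bases, as in the first capital run of UER1. The windows are chr3:8602962-8603211 (plus strand) for GAE6, chr4:14883584-14883833 (minus) for GAE1, chr1:23341961-23342210 (plus) for UER1, chr4:17938271-17938371 (plus) for GAUT3, chr5:19347678-19347873 (plus) for GAUT4 and chr1:3224542-3224683 (minus) for AT1G09910.
GAE6: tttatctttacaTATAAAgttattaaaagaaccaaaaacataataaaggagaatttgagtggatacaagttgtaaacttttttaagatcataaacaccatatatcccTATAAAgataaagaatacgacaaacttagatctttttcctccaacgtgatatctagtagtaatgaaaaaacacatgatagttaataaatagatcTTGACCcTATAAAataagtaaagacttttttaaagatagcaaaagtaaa
GAE1: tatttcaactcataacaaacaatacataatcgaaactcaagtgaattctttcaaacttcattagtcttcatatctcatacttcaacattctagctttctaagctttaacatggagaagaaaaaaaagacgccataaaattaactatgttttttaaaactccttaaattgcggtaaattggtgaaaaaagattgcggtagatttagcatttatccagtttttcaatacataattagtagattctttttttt
UER1: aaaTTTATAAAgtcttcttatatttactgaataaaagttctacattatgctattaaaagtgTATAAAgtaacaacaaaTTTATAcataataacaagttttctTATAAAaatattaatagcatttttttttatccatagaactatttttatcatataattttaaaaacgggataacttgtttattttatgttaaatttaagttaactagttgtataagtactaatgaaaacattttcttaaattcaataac
GAUT3: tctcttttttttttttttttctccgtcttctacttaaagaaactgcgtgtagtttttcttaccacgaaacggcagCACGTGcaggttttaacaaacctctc
GAUT4: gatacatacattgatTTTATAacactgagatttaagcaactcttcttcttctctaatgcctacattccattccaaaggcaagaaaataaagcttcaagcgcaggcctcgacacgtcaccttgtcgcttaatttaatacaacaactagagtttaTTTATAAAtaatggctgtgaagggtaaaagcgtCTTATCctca
AT1G09910: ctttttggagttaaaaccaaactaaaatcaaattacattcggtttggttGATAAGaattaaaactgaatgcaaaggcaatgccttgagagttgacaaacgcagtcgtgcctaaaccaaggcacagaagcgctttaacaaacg

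No motif was shared by all 6 windows, and the 250 bases before GAE1 held none of the 5. Over the full 250-base windows of the 38 tested members, the TATA box was present in 63.2%, against 46.2% of the windows of 20614 tested genes. The I-box core was present in 13.2% of the member windows and 12.4% of all windows, the W-box core in 13.2% and 12.2%, the G-box in 7.89% and 7.28%, and the evening element in 2.63% and 2.55%. A match is a run of letters only. GAUT3, GAUT6 and GAUT7 held the G-box, and GAUT4, GAUT13, GATL5, AT1G09910 and AT4G24430 held the I-box core.

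The 42 genes spanned a wide range of levels. Because QuantSeq primes at the poly(A) tail and a long transcript gives no more reads than a short one, CPM values were compared between genes without a correction for length. GAE6 (AT3G23820, chr3:8603212-8605810), an epimerase that makes UDP-galacturonate, was the most abundant member with a mean of 436 CPM over the 9 libraries. CGR2 (AT3G49720), a homogalacturonan methyltransferase, followed at 81.2 CPM, GAE1 (AT4G30440), the other epimerase, at 67.9 CPM, and UER1 (AT1G63000), which completes UDP-rhamnose synthesis, at 48.3 CPM. GAUT2 was lowest among the enzymes of synthesis, with 3 counts in pca31 library 2 and 0 in the other 8 libraries. A count of 0 allows up to 3 counts, which is 0.0867 to 0.131 CPM per library. These limits cover counting error only, as PCR copies are not independent molecules.

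**Figure D1:**
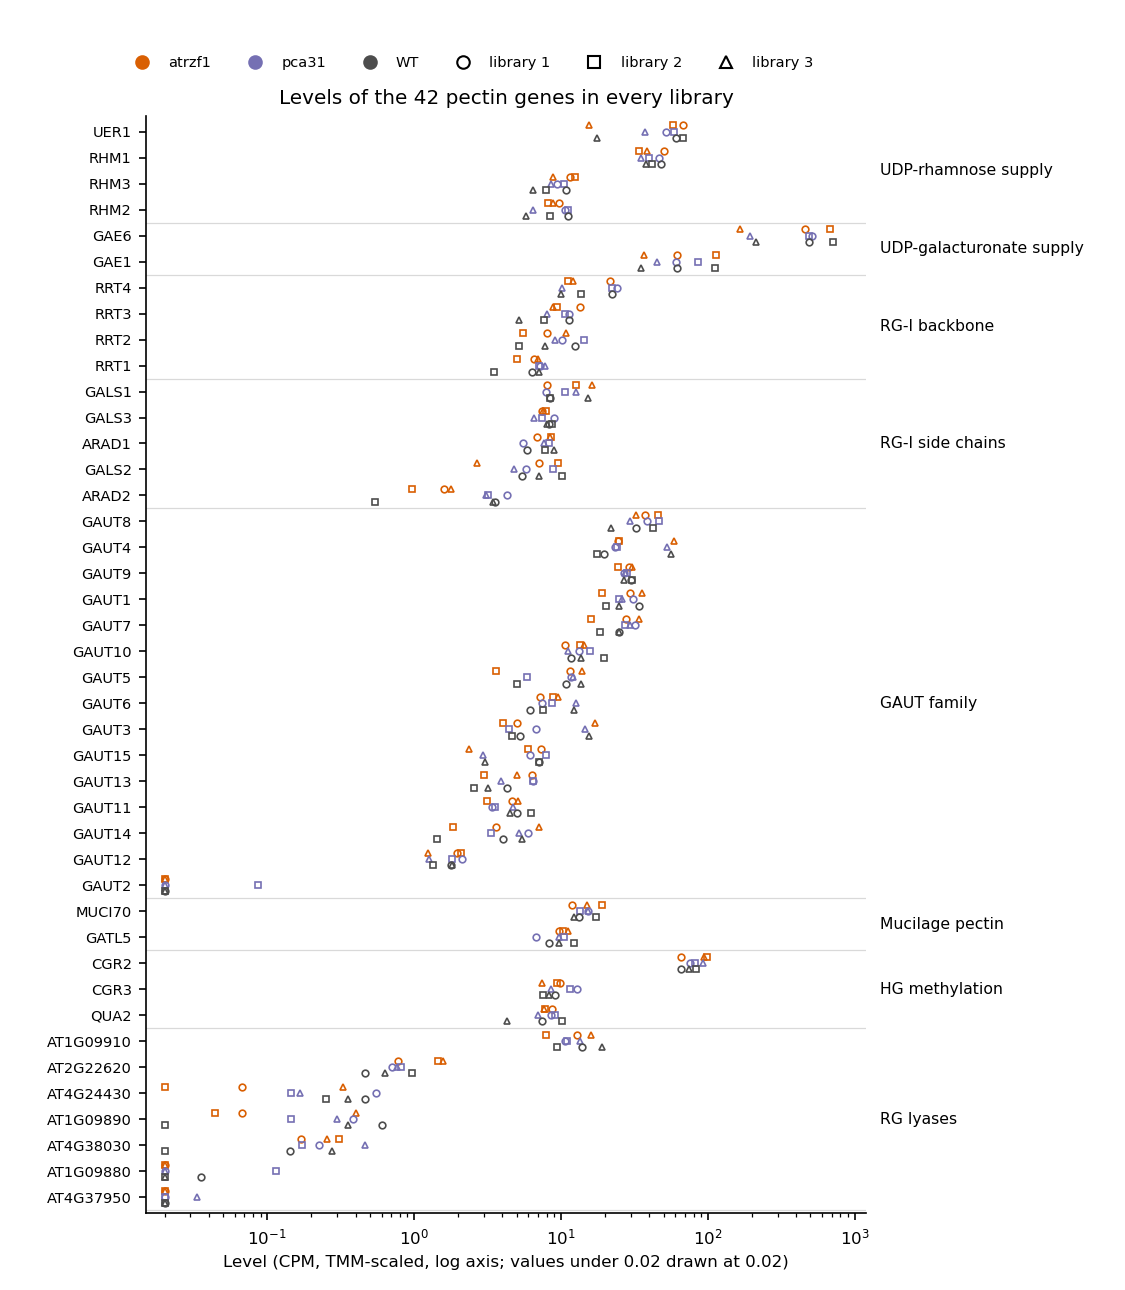
Level of each of the 42 genes in every library, in TMM-scaled CPM on a log axis, grouped by role. Colour stands for genotype and symbol for library number. GAE6 lies at 166 to 715 CPM, while 6 of the 7 lyases stay under 2 CPM in every library.

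In the supply of UDP-rhamnose, the donor for the RG-I backbone, UER1 was at 67.3, 57.6 and 15.5 CPM in atrzf1, 52.2, 59.0 and 37.1 CPM in pca31, and 60.5, 68.3 and 17.5 CPM in WT. The third library was the lowest in each genotype, and the genotypes overlapped. RHM1 (AT1G78570), a rhamnose synthase, varied little, between 33.9 and 50.5 CPM over all 9 libraries. Its relatives RHM2, known for seed mucilage, and RHM3 had means of 8.94 and 9.62 CPM.

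In the supply of UDP-galacturonate, GAE6 was at 459, 684 and 166 CPM in atrzf1, 513, 488 and 192 CPM in pca31, and 489, 715 and 213 CPM in WT. GAE1 was at 61.2, 113 and 36.9 CPM in atrzf1, 60.4, 86.0 and 45.3 CPM in pca31, and 61.8, 111 and 35.0 CPM in WT. Both epimerases were lowest in the third library of every genotype, and the genotypes overlapped throughout.

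Among the genes listed as RG-I backbone rhamnosyltransferases, RRT4 (AT3G21190), which has the symbol MSR1 in RefSeq, was the most abundant. RRT4 was at 21.7, 11.3 and 12.1 CPM in atrzf1, 24.2, 22.3 and 10.1 CPM in pca31, and 22.3, 13.6 and 9.99 CPM in WT. Its libraries overlapped between all genotypes. RRT1, RRT2 and RRT3 had means of 6.37, 9.26 and 9.52 CPM.

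Among the enzymes of the RG-I side chains, the galactan synthase GALS1 (AT2G33570) was the most abundant. It was at 7.98, 12.7 and 16.4 CPM in atrzf1, 7.92, 10.7 and 12.7 CPM in pca31, and 8.39, 8.4 and 15.3 CPM in WT. The highest value of each genotype was in the third library. The galactan synthases GALS2 and GALS3 averaged 6.84 and 7.89 CPM, and the arabinosyltransferase ARAD1 and its relative ARAD2 averaged 7.54 and 2.49 CPM.

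In the GAUT family of galacturonosyltransferases, GAUT8 (AT3G25140), known as QUASIMODO1, was the most abundant. It was at 37.4, 45.6 and 32.6 CPM in atrzf1, 38.4, 46.4 and 29.6 CPM in pca31, and 32.5, 42.6 and 21.8 CPM in WT. GAUT4 followed with a mean of 33.6 CPM, then GAUT9 with 28.2 CPM, and GAUT1 and GAUT7, the partners of a known homogalacturonan synthase complex, with 27.3 and 26.0 CPM. The means of these neighbours in the order lay within the spread of their libraries. GAUT12, known as IRX8 and tied to the secondary wall, averaged 1.72 CPM. The sum over 7 secondary wall markers was 50.1 to 80.9 CPM. Singly these ran from IRX9, at 0.42 to 2.88 CPM, to IRX14, at 15.9 to 28.5 CPM.

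MUCI70 (AT1G28240), which is needed for mucilage pectin in the seed coat, was at 11.9, 19.1 and 14.9 CPM in atrzf1, 15.3, 13.6 and 15.3 CPM in pca31, and 13.2, 17.3 and 12.3 CPM in WT. GATL5, also known from mucilage, averaged 9.84 CPM. Of 6 seed coat mucilage markers, 1 was at 0 in all libraries. The sum of the 6 was 222 to 301 CPM, of which SBT1.7 made up 99.8 to 227 CPM and MUM2 53.9 to 127 CPM. CGR2 was at 65.6, 99.1 and 94.3 CPM in atrzf1, 75.1, 81.4 and 92.5 CPM in pca31, and 65.6, 82.9 and 74.8 CPM in WT, and the other methylation enzymes CGR3 and QUA2 averaged 9.41 and 7.83 CPM. The genotypes overlapped for MUCI70 and CGR2.

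The 7 lyase genes were very unequal. AT1G09910 (chr1:3220035-3224541, minus strand) was at 12.8, 7.93 and 16.0 CPM in atrzf1, 10.7, 11.0 and 13.5 CPM in pca31, and 13.9, 9.36 and 19.1 CPM in WT. It had 3221 counts in all, and its level exceeded that of 59.4% of the tested genes. AT2G22620 (chr2:9604772-9610661, minus strand) came next, at 0.778, 1.45 and 1.57 CPM in atrzf1, 0.708, 0.809 and 0.764 CPM in pca31, and 0.462, 0.965 and 0.629 CPM in WT.

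AT1G09890 (chr1:3214049-3217603, minus strand) was at 0.0676, 0.0438 and 0.401 CPM in atrzf1, 0.386, 0.145 and 0.299 CPM in pca31, and 0.604, 0 and 0.354 CPM in WT, from 66 counts in all. AT4G24430 (chr4:12629951-12633132, plus strand) was at 0.0676, 0 and 0.328 CPM in atrzf1, 0.547, 0.145 and 0.166 CPM in pca31, and 0.462, 0.252 and 0.354 CPM in WT, also from 66 counts. These genes lay close to the floor of detection, and their genotypes overlapped. The other lyases were not tested. AT4G38030 had 5, 7 and 7 counts in atrzf1, 7, 6 and 14 counts in pca31, and 4, 0 and 7 counts in WT. AT1G09880 had 0 counts in every atrzf1 library, 0, 4 and 0 counts in pca31 and 1, 0 and 0 counts in WT, and AT4G37950 had 1 count, in pca31 library 3.

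No pectin gene was called between the genotypes in the fit with genotype as the only term, which leaves out the replicate number. Of the 38 tested members, 0 passed an edgeR adjusted p of 0.05 in atrzf1 against WT, where 0% of all tested genes passed. The count was also 0 in pca31 against atrzf1, where 0.00484% of all tested genes passed, in pca31 against WT, where 0.00484% passed, and in the test for any genotype difference, where 0.00484% passed. At an unadjusted p of 0.05, edgeR gave 0 members in each of these contrasts. Over all tested genes the shares at that p were 0.556%, 0.213%, 0.919% and 0.266%, in the same order. DESeq2 and limma-voom called 0 members after adjustment. A count of 0 thus stood beside a near-0 share over all genes.

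With the replicate number as a block the share of all genes called was 0.0339% in atrzf1 against WT, 0.00484% in pca31 against atrzf1, 0.0435% in pca31 against WT and 0.0387% for any difference, and the members' count remained 0 of 38 in each. The unadjusted p in edgeR was under 0.05 for ARAD2 in pca31 against atrzf1 (log2 fold change 1.37 ± 0.46) and for GAUT13 in pca31 against WT (0.77 ± 0.30). These single members (2.63% of the 38 each) stand beside 4.42% and 8.44% of all tested genes at that unadjusted p. Their edgeR adjusted p-values were 0.956 and 0.529.

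The median log2 fold change of the members was 0.04 in atrzf1 against WT, -0.00 in pca31 against atrzf1, and 0.05 in pca31 against WT. Over all tested genes the medians were 0.00, 0.00 and 0.01. The 3 contrasts share libraries, so these values are not independent of each other. The fold change was within 0.5 on the log2 scale for 33, 34 and 37 of the 38 members. These shares of 86.8%, 89.5% and 97.4% stand beside 86.1%, 86.3% and 83.2% of all tested genes. The median standard error of this fit, without the replicate block, was 0.34 in each contrast. Its 95% interval lay within 1 on the log2 scale for 20, 21 and 16 members. With the block the median standard error was 0.20 in each contrast, and the interval lay within 1 for 33, 32 and 30 members. A change of that size is outside the interval of the respective fit for those members only.

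**Figure D2:**
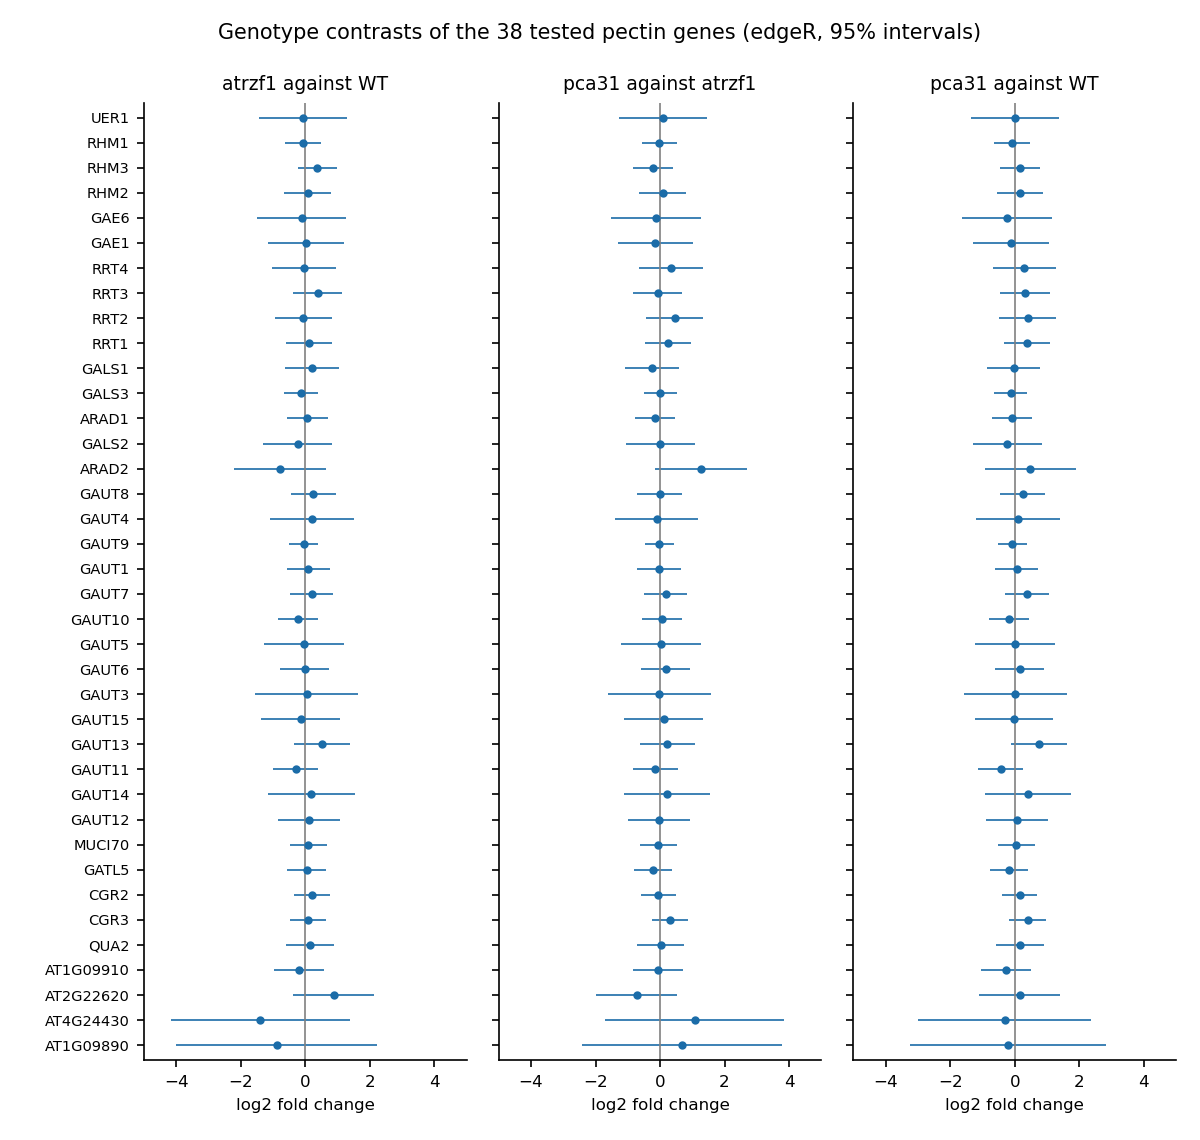
Log2 fold change of each tested member in the 3 genotype contrasts (points), with 95% intervals (bars) from the edgeR fit without the replicate block. Every interval spans 0, and the widest belong to the lyases AT4G24430 and AT1G09890, which had 66 counts each.

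Estimates named below for the genotype contrasts come from the fit without the replicate block. In atrzf1 against WT the highest estimates were those of AT2G22620 (0.88 ± 0.56, SE), GAUT13 (0.51 ± 0.38) and RRT3 (0.39 ± 0.34). The lowest were those of the lyases AT4G24430 (-1.39 ± 1.23) and AT1G09890 (-0.89 ± 1.37) and of ARAD2 (-0.79 ± 0.63). Adjusted p-values in edgeR were 1.00 for all 6.

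In pca31 against atrzf1 the highest estimates were those of ARAD2 (1.28 ± 0.63), AT4G24430 (1.07 ± 1.23) and AT1G09890 (0.67 ± 1.37). The lowest were those of AT2G22620 (-0.73 ± 0.55), GALS1 (-0.25 ± 0.37) and RHM3 (-0.21 ± 0.27). None passed the test.

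In pca31 against WT the highest estimates were those of GAUT13 (0.74 ± 0.38), ARAD2 (0.49 ± 0.62) and GAUT14 (0.41 ± 0.59). GAUT13 and GAUT14 are known for pectin of the pollen tube, and the part of the floral and pollen markers given above in their values was not tested. The lowest were those of GAUT11 (-0.44 ± 0.31), AT4G24430 (-0.32 ± 1.18) and the abundant lyase AT1G09910 (-0.27 ± 0.34). None passed the test. GAUT13 was at 6.32, 2.98 and 5.03 CPM in atrzf1, 6.44, 6.47 and 3.92 CPM in pca31, and 4.3, 2.56 and 3.18 CPM in WT. The pca31 libraries lay above WT within each number, but the genotypes overlapped.

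ARAD2 (AT5G44930, chr5:18138775-18142159, minus strand) was at 1.59, 0.964 and 1.79 CPM in atrzf1, 4.28, 3.18 and 3.09 CPM in pca31, and 3.55, 0.546 and 3.42 CPM in WT. All pca31 libraries lay above all atrzf1 libraries, by 1.19, 1.33 and 0.65 on the log2(CPM + 0.5) scale within numbers 1, 2 and 3, while WT spanned both. ARAD2 overlaps AT5G44920 on the opposite strand, and the strand setting of the counting is not known, so reads of the pair cannot be told apart. AT5G44920 averaged 8.73 CPM, with a log2 fold change of 0.38 in pca31 against atrzf1.

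RRT1 was the other member whose pca31 libraries (7.15, 7.05 and 7.74 CPM) all lay above those of atrzf1 (6.53, 4.99 and 6.96 CPM). The order of RRT1 was lost with CPM on total counts and kept with RLE factors. These 2 of 38 members stand beside 1.79% of all tested genes with such an order, and 0 members had the opposite order, beside 1.27%. In pca31 against WT only GAUT7 did not overlap on the high side (31.7, 27.2 and 29.4 CPM in pca31, 24.7, 18.3 and 24.8 CPM in WT), beside 2.89% of all tested genes, and 0 members did so on the low side, beside 2.06%. In atrzf1 against WT GALS3 did not overlap on the low side (7.44, 7.89 and 7.58 CPM in atrzf1, 8.28, 8.69 and 8.1 CPM in WT), beside 1.14%, and 0 members did so on the high side, beside 1.3%. The fold of GALS3 was -0.13 ± 0.23 on the log2 scale, and the order of its libraries was lost both with CPM on total counts and with RLE factors.

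The members varied far more with the number in the sample title than with the genotype. Same-numbered libraries of different genotypes deviated together across genes, and the labels do not say what a number stands for. On the log2(CPM + 0.5) scale the number took a median of 61.7% of a member's sum of squares and the genotype 9.47%, against 68.4% and 8.31% over all tested genes. The number took more than the genotype in 30 of 38 members (78.9%), beside 87.1% of all tested genes. For GAUT3 the share of the number was 97.4%. The share of the genotype was highest in the lyase AT2G22620, at 52.7%. This gene had 224 counts in all and lay at 0.462 to 1.57 CPM, close to the 0.5 added on this scale. It passed in no genotype contrast.

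**Figure D3:**
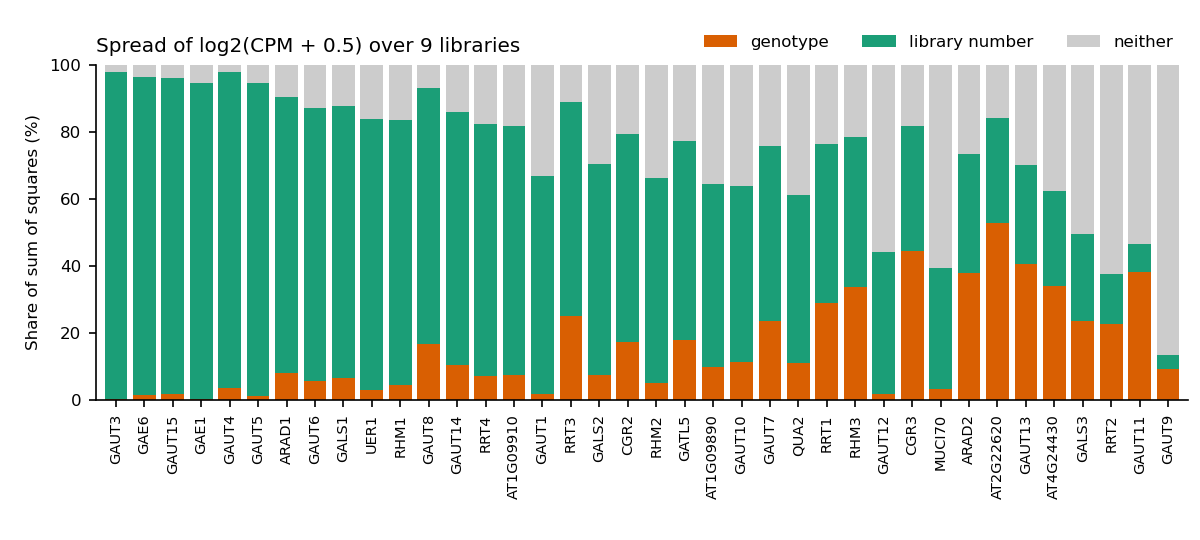
Share of the sum of squares of log2(CPM + 0.5) over 9 libraries taken by genotype, by library number and by neither, for each tested member, ordered by the share of the number. The number has the larger share in 30 of the 38 bars (78.9%), beside 87.1% of all tested genes.

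In the number 3 libraries 3 genes of sugar nucleotide supply fell, relative to numbers 1 and 2 with genotype as a term. RHM1, RHM2 and RHM3 of the same supply were not called, and 5 GAUT genes rose while 2 fell. Of the 38 members, 15 (39.5%) passed an edgeR adjusted p of 0.05, beside 45.7% of all tested genes, so that the members' share was no higher than the background. On the high side were 7 members (18.4%), beside 23.6% of all genes, and on the low side 8 (21.1%), beside 22.1%. The higher ones were GALS1, GAUT3, GAUT4, GAUT5, GAUT6, GAUT14 and AT1G09910, and the lower ones RRT3, RRT4, UER1, GALS2, GAUT8, GAUT15, GAE1 and GAE6. The split depends on scaling. With library totals in place of TMM factors the median of all tested genes moved to 0.39 on the log2 scale and that of the members to 0.39, and 12 members were higher and 4 lower. The share of higher calls among members was 46.7% with TMM and 75% with library totals, against 51.6% and 76.1% over all genes. The 4 members lower under both scalings were UER1, GAUT15, GAE1 and GAE6.

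**Figure D4:**
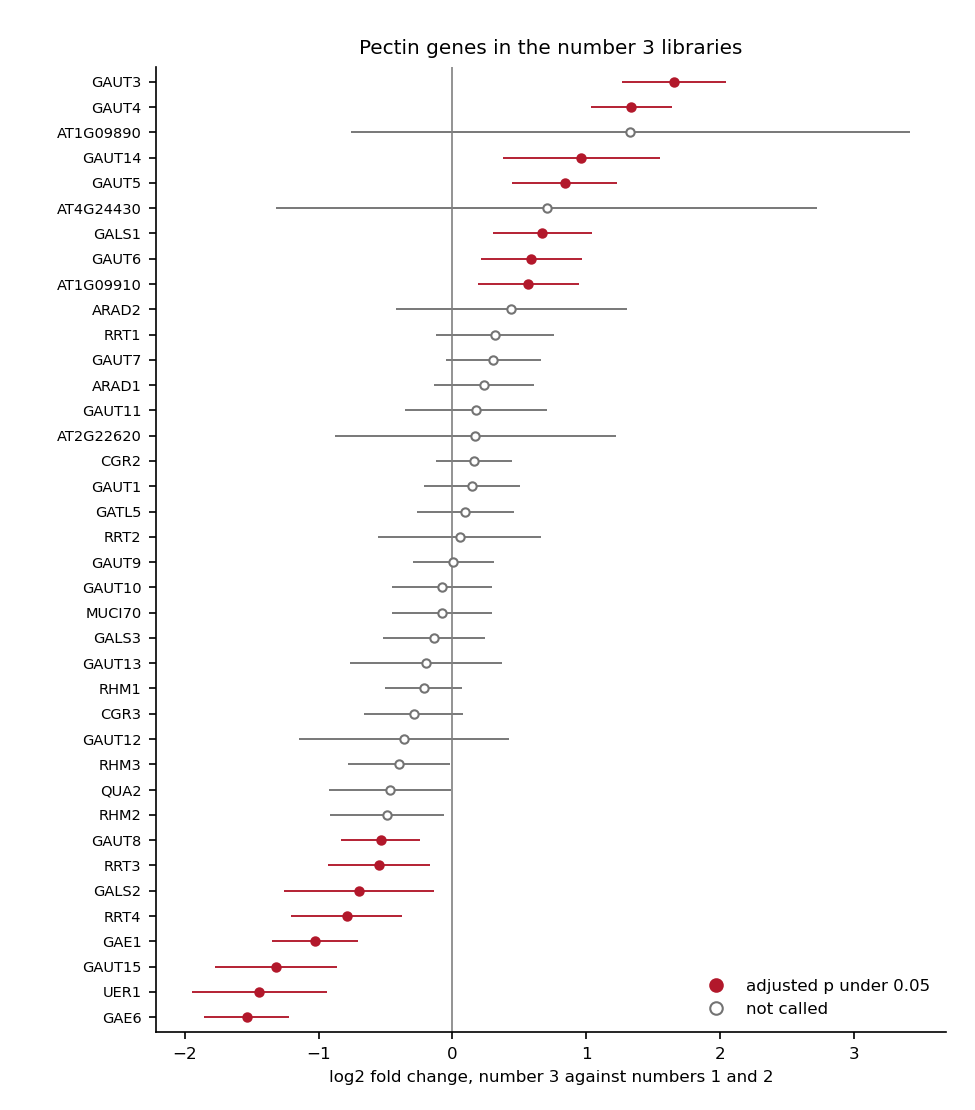
Log2 fold change of each tested member in number 3 against numbers 1 and 2, with genotype as a term and 95% intervals (bars). Filled points have an edgeR adjusted p under 0.05, 7 of them above 0, up to GAUT3 at 1.66, and 8 below 0, down to GAE6 at -1.54.

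GAE6 averaged 191 ± 23.6 CPM in the number 3 libraries (SD, n = 3) and 558 ± 111 CPM in the number 1 and 2 libraries (SD, n = 6). The log2 fold change was -1.54 ± 0.15 (SE), with an edgeR adjusted p = 1.38e-05. GAE1 averaged 39.0 ± 5.48 CPM and 82.3 ± 25.1 CPM in the same groups, a log2 fold change of -1.03 ± 0.15 with an edgeR adjusted p = 0.000248. Every number 3 library lay below every other library for both epimerases. UER1 averaged 23.4 ± 11.9 CPM in number 3 and 60.8 ± 6.09 CPM in numbers 1 and 2, with a log2 fold change of -1.44 ± 0.23 and an edgeR adjusted p = 0.000665. Here pca31 library 3 (37.1 CPM) lay between the other number 3 libraries and the rest. RHM1, RHM2 and RHM3 were not called, with log2 fold changes of -0.22, -0.49 and -0.40, so that of the 4 genes of UDP-rhamnose supply 1 fell.

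**Figure D5:**
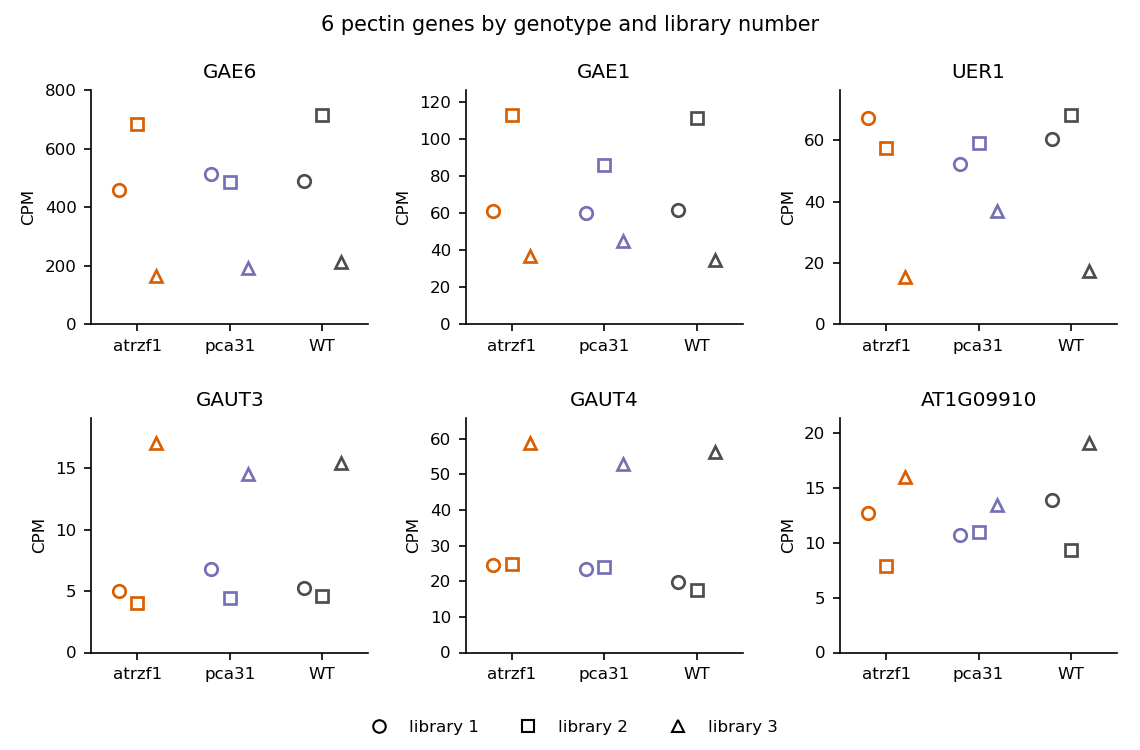
Level (CPM) of 6 members in every library, by genotype along the axis and library number by symbol. GAE6, GAE1 and UER1 are lowest, and GAUT3 and GAUT4 highest, in library 3 of each genotype, while the genotypes share their ranges.

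GAUT4 was at 58.7 CPM in atrzf1, 52.8 CPM in pca31 and 56.4 CPM in WT in the number 3 libraries. In the number 1 and 2 libraries it was at 24.6 and 24.7 CPM in atrzf1, 23.4 and 24.1 CPM in pca31, and 19.7 and 17.6 CPM in WT. The log2 fold change was 1.34 ± 0.14, with an edgeR adjusted p = 1.31e-05. GAUT3 averaged 15.6 ± 1.28 CPM in number 3 (SD, n = 3) and 5.02 ± 0.95 CPM in numbers 1 and 2 (SD, n = 6), a log2 fold change of 1.66 ± 0.18 with an edgeR adjusted p = 1.58e-05. Neither gene overlapped between these groups of libraries.

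Of the 14 tested GAUT genes 5 were called higher and 2 lower. Beside GAUT3 and GAUT4, the log2 fold change was 0.96 ± 0.27 for GAUT14, 0.84 ± 0.18 for GAUT5 and 0.59 ± 0.17 for GAUT6. GAUT15 changed by -1.32 ± 0.21 and the abundant GAUT8 by -0.54 ± 0.14. GAUT1 and GAUT7 did not pass, at 0.15 ± 0.16 and 0.31 ± 0.16. GAUT9 was nearly level, at 0.01 ± 0.14, with a 95% interval of -0.30 to 0.31. Family members thus went in both directions by the test.

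Of the RG-I genes, GALS1 rose by 0.67 ± 0.17, while RRT3 (-0.55 ± 0.17), RRT4 (-0.79 ± 0.19) and GALS2 (-0.70 ± 0.26) fell. Of the 5 side chain genes 1 was called higher and 1 lower, and of the 4 backbone genes 2 were called lower. RRT4 averaged 10.7 ± 1.21 CPM in number 3 (SD, n = 3) and 19.2 ± 5.38 CPM in numbers 1 and 2 (SD, n = 6), and these overlapped. No gene of mucilage pectin or of homogalacturonan methylation passed. The lyase AT1G09910 rose by 0.57 ± 0.17, with an edgeR adjusted p = 0.0169, and averaged 16.2 ± 2.81 CPM in number 3 (SD, n = 3) and 11.0 ± 2.19 CPM in numbers 1 and 2 (SD, n = 6). Its call was lost without WT library 3 (adjusted p = 0.0963 in edgeR) and without atrzf1 library 3 (adjusted p = 0.0889 in edgeR). The other tested lyases AT1G09890, AT4G24430 and AT2G22620 did not pass, with estimates of 1.33, 0.70 and 0.17 and standard errors of 0.96, 0.93 and 0.48.

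Without overlap between number 3 and the other libraries were 4 members on the high side (GAUT3, GAUT4, GAUT5 and GAUT6), beside 18.9% of all tested genes, and 4 on the low side (UER1, GAUT15, GAE1 and GAE6), beside 17.3%. In 17 fits, counting that above, other settings and each library left out, GALS1, UER1, GAUT3, GAUT4, GAUT5, GAUT15, GAE1 and GAE6 passed each time, while GALS2 passed in 7. RRT3 passed in 12, and GAUT8, RRT4, GAUT6 and AT1G09910 in 15. Of the 16 fits that tested GAUT14, 14 called it. RHM2 passed on the low side in 3 fits and QUA2 in 1, GAUT7 passed on the high side in 2, and RRT1, ARAD1, GAUT1 and CGR2 did so with library totals alone. In edgeR, GALS2 had an adjusted p = 0.363 without atrzf1 library 3, RRT3 an adjusted p = 0.169 without WT library 3 and GAUT14 an adjusted p = 0.123 without atrzf1 library 3.

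Root markers rose (12 of 13 tested, with GL2 lower) and leaf photosynthesis genes fell (7 of 8) in the same number 3 libraries. Their part in the values of the pectin genes was not tested, and in bulk samples fewer cells of a type and less RNA per cell cannot be told apart. Of the called members, RRT3, RRT4, GAUT8 and GAUT15 overlap a gene on the opposite strand. AT1G14030, opposite RRT3, averaged 10.9 CPM and fell by 0.44 in number 3, and AT3G25150, opposite GAUT8, averaged 57.6 CPM and had a log2 fold change of 0.52, in the other direction than GAUT8. AT3G21180, opposite RRT4, and AT3G58780 and AT3G58795, opposite GAUT15, averaged 0.175, 0.698 and 0.283 CPM. In all, 12 members have such a neighbour. The last 500 bases of the members' transcripts shared at most 23 bases in a row in any of 861 pairs, so long identical 3′ ends were not present.

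Number 2 against number 1 moved few of the pectin genes. Only 3 of 38 members (7.89%) passed the edgeR test, beside 22% of all tested genes. On the high side was GAE1 (0.76 ± 0.17, adjusted p = 0.00967), beside 9.87% of all genes. On the low side were GAUT5 (-1.25 ± 0.21, adjusted p = 0.00248) and GAUT14 (-1.06 ± 0.32, adjusted p = 0.0343), beside 12.1%. GAUT5 was at 3.59 CPM in atrzf1, 5.84 CPM in pca31 and 5.04 CPM in WT in the number 2 libraries and at 11.6, 11.7 and 10.9 CPM in the number 1 libraries. The number 2 libraries were lower in all 3 genotypes for GAUT5. GAUT1 passed on the low side in limma-voom, in the fit of genes of at least 5 CPM and in the fit without a genotype term.

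This count rests on single libraries. Without pca31 library 2, 13 of 38 members (34.2%) passed, beside 29.7% of all tested genes. Of these, 4 were higher (MUCI70, GAE1, GAE6 and CGR2), beside 14.5%, and 9 lower (RRT2, RRT4, ARAD2, GAUT1, GAUT5, GAUT7, GAUT13, GAUT14 and AT1G09910), beside 15.2%. The count was 1, GAUT5, without WT library 2, without atrzf1 library 1 and without atrzf1 library 2, beside 8.69% to 9.70% of all tested genes in these fits. GAE6 was at 684 CPM in atrzf1 library 2, 488 CPM in pca31 library 2 and 715 CPM in WT library 2, and RRT4 at 11.3, 22.3 and 13.6 CPM in the same libraries. In the number 1 libraries GAE6 was at 459, 513 and 489 CPM and RRT4 at 21.7, 24.2 and 22.3 CPM. These genes were picked after their values were seen. Over the 38 members, pca31 library 2 was nearer to pca31 library 1 than to the mean of the other number 2 libraries in 18 (47.4%), beside 50.1% of all tested genes.

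Other genes of the pathway were not called between genotypes either. Of 29 tested genes of 30 in a list of further precursor and synthesis genes, and of 28 tested of 33 in a list of pectin modification, degradation and recycling, 0 passed edgeR in any genotype contrast. The highest estimates in atrzf1 against WT were those of the pectin methylesterase PME17 (0.99 ± 1.18) and the methylesterase inhibitor PMEI3 (0.80 ± 0.91). The lowest were those of PGX1 (-1.67 ± 2.44) and GATL2 (-0.84 ± 0.59). MUR4, which makes UDP-arabinose, had 0.66 ± 0.40 in atrzf1 and 0.89 ± 0.40 in pca31, each against WT. In number 3 against numbers 1 and 2, with TMM scaling, 4 of the 29 rose and 10 fell (48.3% called), and 7 of the 28 rose and 12 fell (67.9% called). Over all tested genes 23.6% rose and 22.1% fell (45.7% called). PME35, a pectin methylesterase, was at 3.53 CPM in atrzf1, 1.93 CPM in pca31 and 1.57 CPM in WT in number 3, against 20.5 to 40.9 CPM under the other numbers, a log2 fold change of -3.59 ± 0.23.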

How the data were processed

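The deposited files, 1 per library, held raw counts per gene: their values are whole and sum to unequal totals. Per the labels' protocols, RNA was extracted with TRIzol and 500 ng went into Lexogen QuantSeq 3′ libraries. The genome build was TAIR10 and the tools included Bowtie2 and bedtools, per the submitters' processing notes. Not given in the sources used here were the versions, the annotation, the strand setting and read filters. Coordinates came from RefSeq TAIR10.1, which matched 32835 of 33323 identifiers and all 42 members. Member names are those of the list, and RefSeq has other symbols for some, such as MSR1 for RRT4.

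Total counts were 22478803 to 33073605, and 3 counts corresponded to 0.0867 to 0.131 CPM. Counts were tested in R 4.3.3 with edgeR 4.0.16 (glmQLFit and glmQLFTest) after filterByExpr (minimum count 10, minimum total 15) and TMM scaling, with genotype as the only term and Benjamini-Hochberg adjustment over 20672 genes. Standard errors and intervals came from the same fit. The contrasts of replicate numbers used genotype and number as terms. Same-numbered libraries share their number in the labels, and their deviations from the genotype means correlated at 0.585 to 0.849 in all 9 pairs. The numbers were therefore taken to pair the libraries in the replicate block. The fit with genotype alone leaves this pairing out. Its median standard error over the members was 0.34 in each genotype contrast, against 0.20 with the block. Alternatives were the replicate block, RLE factors, library totals, no filter, a mean of at least 5 CPM, DESeq2 1.42.0, limma-voom (limma 3.58.1) and leaving out each library. The fits were run on simulated counts with known changes. The simulation changed few genes by number, unlike these libraries, so it does not show how the fit with genotype alone performs here.

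The members and gene lists were chosen with earlier results of these data known. Named were AtRZF1, the 7 lyases, the most abundant member of each role, members called by any fit, members without overlap between genotypes, and the 3 largest changes each way. No sequence of the proteins was used here.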

Additional observations from a re-analysis of the deposited data

How the results depend on the processing

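In all 31 fits of each genotype contrast, 0 members were called, with the replicate block (0 members in each contrast), other tools and scalings and each library left out. The replicate block changed no call of a member, while it brought AtRZF1 past the threshold. AtRZF1 in pca31 against atrzf1 ranged from -0.72 to 0.053, turning positive without atrzf1 library 2. The members' median fold moved with library totals to 0.24 in pca31 against WT (0.31 with the block), to 0.16 in pca31 against atrzf1 with the block, and to 0.39 in number 3 against numbers 1 and 2. With library totals the median of all genes moved alike, to 0.21, 0.15 and 0.39 without the block. With the block and number 3 left out the median was -0.022 in atrzf1 against WT, and with number 1 left out it was 0.13 in pca31 against WT. Leaving out 1 library gave medians of -0.027 to 0.08 in atrzf1 against WT, -0.00 to 0.14 in pca31 against WT and -0.04 to 0.09 in pca31 against atrzf1.

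Leaving out 1 library gave 10 to 16 calls in number 3 against numbers 1 and 2, and 1 to 13 calls in number 2 against number 1, where 31.4% to 48.5% and 8.69% to 29.7% of all tested genes were called. Members without overlap between genotypes were 2 (RHM3 and GAUT8, higher) and 0 (lower) in atrzf1 against WT on total counts, 0 (lower) with RLE factors, and 6 (higher) in pca31 against WT on total counts. Over all tested genes these orders had shares of 1.54%, 0.701%, 1.17% and 6.03%. Members with the same sign of difference under all 3 replicate numbers were 6 higher and 4 lower in atrzf1 against WT, 3 higher and 5 lower in pca31 against atrzf1, and 8 higher and 2 lower in pca31 against WT. The members' shares were 15.8%, 10.5%, 7.89%, 13.2%, 21.1% and 5.26%, beside 12.1%, 13.1%, 12.6%, 11.4%, 15.7% and 14.3% of all tested genes. Library totals, the block without a library or a number, and the block with totals were added after seeing the data. The cause of these shifts was not tested. Depth limits the lyases other than AT1G09910, at 224 counts or fewer over 9 libraries.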
